A study of Danio rerio with 20 samples.

Results

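Of the 57775 transcripts measured in whole zebrafish larvae, 158 were lower in every pool exposed to lithium cobalt oxide (LCO) nanosheets or ions than in any untreated pool. A transcript was taken when its highest abundance over the 15 exposed libraries lay below its lowest over the 5 untreated ones, with an untreated mean of at least 1 TPM. TPM gives reads per transcript length as a share of the library. Of the 28782 transcripts that reached that untreated mean, the 158 are 0.549%, and the limit of 300 members in the rule was not reached. The opposite pattern, every exposed library above every untreated one at the same untreated mean, was met by 17 transcripts (0.0591%). The members were thus chosen by their TPM in all 20 libraries, so differences between exposed and untreated larvae are described here without a test.

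The libraries came from 4 groups of wild type larvae, sampled at 10 days post fertilization after an exposure of 48 hours. The groups were LCO nanosheets at 10 mg/L, LCO nanosheets at 1 mg/L, ion, and untreated, with 5 libraries each from pools of 20 larvae. All larvae were fed from day 5 on. The labels give neither the makeup nor the dose of the ion treatment, and they do not say whether pools shared parents or tanks, so the spread between libraries is that between these pools.

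LCO is the layered oxide used as a cathode in many lithium-ion batteries, and in water its nanosheets can release lithium and cobalt ions. Dissolved ions are commonly run beside a metal oxide so that effects of the particle can be set against those of what dissolves from it. A zebrafish larva at this age swims and feeds on its own, and RNA of the whole body mixes all its tissues. A lower level of a transcript in such RNA can mean fewer cells of a type or less RNA per cell, and these cannot be told apart here. The files name transcripts by Ensembl identifier only and 0 of them matched the gene tables at hand, so no gene names, roles or tissue markers can be given, and a change of a gene cannot be told from a change between its transcripts.

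Library totals ranged from 24950529 to 47031868 estimated counts at LCO 10 mg/L, 30439905 to 52060281 at LCO 1 mg/L, 35012696 to 49469173 under ion and 32568890 to 63120039 in untreated larvae. On the first principal component of log2 CPM (counts scaled to library size), 8 exposed libraries lay apart from all others. They were replicates 2, 3, 4 and 6 of LCO 10 mg/L, 1 and 2 of LCO 1 mg/L, and 4 and 6 of ion. In LCO 10 mg/L replicate 2, the median transcript with an untreated mean of at least 1 TPM lay 0.53 below its untreated mean on the log2 TPM scale. In the other 19 libraries that median lay between -0.13 and 0.15. The low member levels in LCO 10 mg/L replicate 2 are thus shared in part by the median transcript.

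The median member stood at 57.2% of its untreated mean TPM at LCO 10 mg/L, at 51.3% at LCO 1 mg/L and at 74.1% under ion. Over all 28782 transcripts the median was 94.9% at LCO 10 mg/L, 106% at LCO 1 mg/L and 106% under ion. The untreated mean was at least 2 times the LCO 10 mg/L mean in 43 members, at least 2 times the LCO 1 mg/L mean in 73, and at least 2 times the ion mean in 11. The background of such falls was 2.79% of transcripts at LCO 10 mg/L, 4.03% at LCO 1 mg/L and 0.709% under ion. The rule used these levels, so nothing is read from those counts. Together the members held 7986 ± 1202 TPM at LCO 10 mg/L, 6897 ± 920 at LCO 1 mg/L, 10249 ± 185 under ion and 13509 ± 829 in untreated larvae (SD, n = 5 each). ENSDART00000188780.1 alone held 2590 TPM of this at LCO 10 mg/L, 1641 at LCO 1 mg/L, 3526 under ion and 4990 in untreated larvae. The sums thus weigh the most abundant members most.

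**Figure D1:**
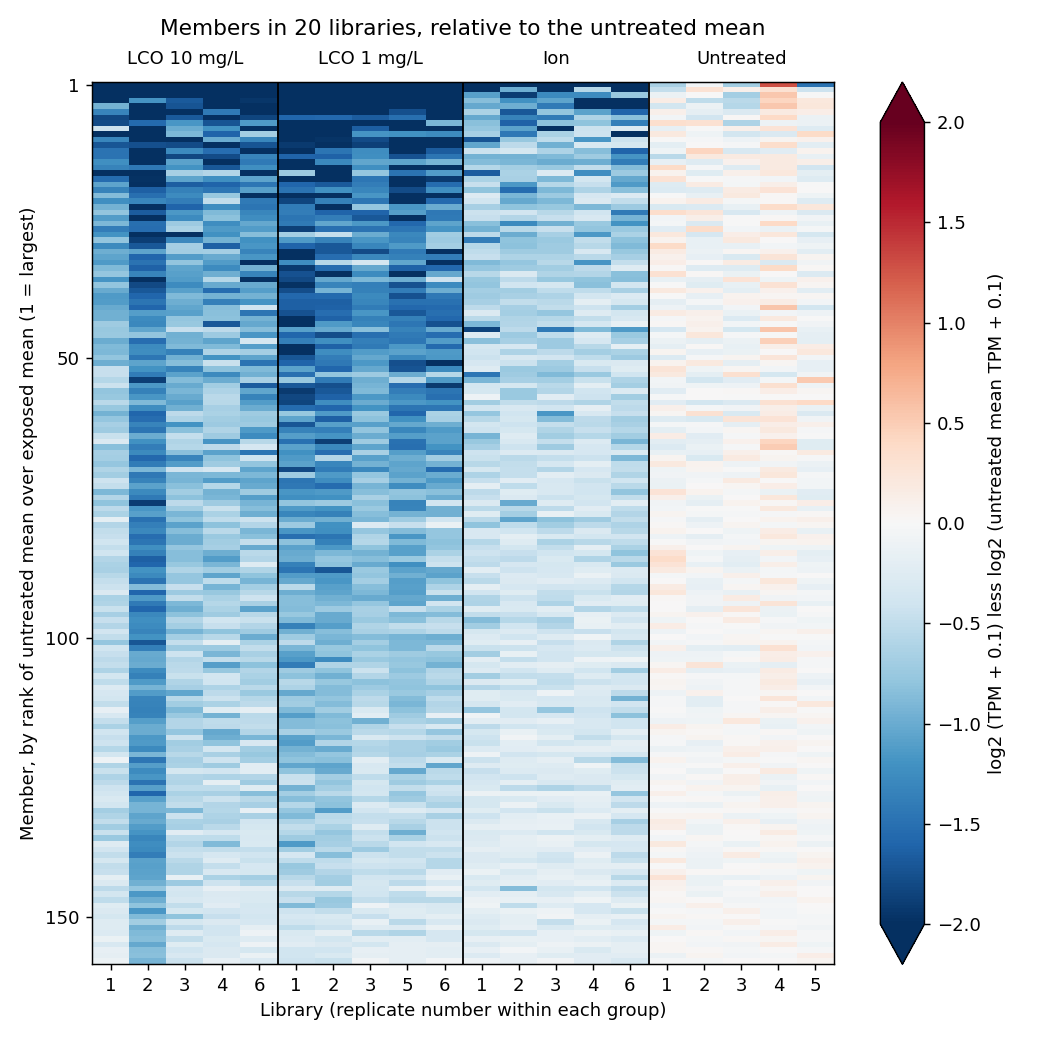
Each row is one of the 158 members and each column a library; colour gives log2 (TPM + 0.1) less that of the untreated mean, with blue for lower. Rows run from the largest to the smallest ratio of untreated to exposed mean. The untreated columns stay near 0 and the ion columns are paler than the LCO columns. LCO 10 mg/L replicate 2 is darker than its group, and the median transcript is also low in that library.

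Most members moved by a modest amount. The ratio of the untreated mean to the exposed mean had a median of 1.66 and a middle range of 1.46 to 1.98, and it was at least 2 in 38 members, at least 3 in 6 and under 1.5 in 49. The gap between the groups was narrow as well, since the lowest untreated library was a median of 1.05 times the highest exposed library. In 10 members the highest exposed library lay below 0.8 times the lowest untreated one.

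The largest ratio, 46.8, was that of ENSDART00000161630.2. Its TPM was 0, 0, 0, 0.192 and 0 at LCO 10 mg/L, 0, 0, 0.313, 0 and 0 at LCO 1 mg/L, 0.530, 0.519, 0, 0 and 0 under ion and 3.06, 4.65, 2.96, 11.9 and 1.67 in untreated larvae. It was at 0 in 11 of the 15 exposed libraries, and the untreated libraries themselves differed widely. The counts behind it were small, 24.98 estimated counts in the lowest untreated library.

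ENSDART00000169128.2 was at 0 in a whole group. Its TPM was 38.4, 37.9, 51.1, 0 and 37.5 at LCO 10 mg/L and 0 in all 5 libraries of LCO 1 mg/L, against 118, 67.2, 104, 105 and 148 under ion and 232, 253, 157, 367 and 249 in untreated larvae. Ion lay between the LCO libraries and the untreated ones without overlap, and LCO 10 mg/L replicate 4 was at 0 like the whole group at LCO 1 mg/L. At least 7631 estimated counts stood behind each untreated value.

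ENSDART00000170495.2 followed the same order of groups with more spread. It had 0.718, 1.24, 1.81, 2.82 and 1.70 TPM at LCO 10 mg/L, 0.496, 1.89, 0, 0.206 and 0 at LCO 1 mg/L, 1.179, 6.51, 1.77, 8.62 and 1.92 under ion and 9.25, 15.8, 13.8, 15.9 and 9.59 in untreated larvae. Ion replicates 2 and 4 came near the untreated range and the other 3 ion libraries lay among those of LCO 10 mg/L. Its untreated mean was 6.24 times the exposed mean.

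The next 3 by ratio were ENSDART00000173943.2, ENSDART00000140155.2 and ENSDART00000182186.1, at 4.19, 3.92 and 3.24. ENSDART00000173943.2 averaged 5.85 ± 2.65 TPM at LCO 10 mg/L, 2.21 ± 0.629 at LCO 1 mg/L, 7.87 ± 4.15 under ion and 22.2 ± 6.54 in untreated larvae (SD, n = 5 each). ENSDART00000140155.2 averaged 12.5 ± 7.51 TPM at LCO 10 mg/L, 7.13 ± 3.46 at LCO 1 mg/L, 16.6 ± 7.58 under ion and 47.3 ± 14.98 in untreated larvae (SD, n = 5 each). In both, the ion libraries overlapped with those of LCO 10 mg/L, and ion replicates 4 and 6 were the lowest ion libraries. ENSDART00000182186.1 averaged 1.48 ± 0.502 TPM at LCO 10 mg/L, 1.03 ± 0.305 at LCO 1 mg/L, 2.45 ± 0.813 under ion and 5.35 ± 0.770 in untreated larvae (SD, n = 5 each).

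In 6 members at least 1 exposed library was at 0, and these were ENSDART00000161630.2, ENSDART00000170495.2, ENSDART00000169128.2, ENSDART00000104778.5, ENSDART00000153936.2 and ENSDART00000157699.2, chosen after their values were seen. The last 3 in that list averaged 2.64, 0.898 and 2.31 TPM at LCO 10 mg/L, 0.988, 0.844 and 2.05 at LCO 1 mg/L, 1.41 to 4.31 under ion and 2.92 to 7.23 in untreated larvae. All 6 were between 426 and 1251 bases long. The other members were detected in every library.

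Among the members with the highest untreated levels, ENSDART00000188780.1 stood first. It had 2550, 2088, 2894, 2839 and 2581 TPM at LCO 10 mg/L, 1003, 1625, 1947, 1945 and 1684 at LCO 1 mg/L, 3435, 3305, 3371, 3538 and 3984 under ion and 4900, 5246, 4111, 5735 and 4959 in untreated larvae. The 4 groups did not overlap, and LCO 1 mg/L was lowest, then LCO 10 mg/L, then ion. ENSDART00000164702.2 kept that order of means, at 512 ± 94.9 TPM at LCO 10 mg/L, 361 ± 102 at LCO 1 mg/L, 706 ± 90.7 under ion and 969 ± 86.2 in untreated larvae (SD, n = 5 each). ENSDART00000145282.2 averaged 329 ± 59.4 TPM at LCO 10 mg/L, 307 ± 24.4 at LCO 1 mg/L, 406 ± 19.0 under ion and 451 ± 18.0 in untreated larvae (SD, n = 5 each).

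The other 3 of these 6, ENSDART00000093615.3, ENSDART00000081215.5 and ENSDART00000113395.3, were the 3 members with the smallest ratios, 1.19, 1.21 and 1.21. ENSDART00000093615.3 had 2358, 1344, 1900, 2277 and 2107 TPM at LCO 10 mg/L, 1922, 1872, 2415, 2250 and 2464 at LCO 1 mg/L, 2373, 2286, 2433, 2186 and 2031 under ion and 2492, 2488, 2566, 2559 and 2635 in untreated larvae. Its untreated libraries differed little and several exposed libraries of each group lay just under them. ENSDART00000093615.3 and ENSDART00000081215.5 were among 7 members whose groups overlapped once libraries were scaled by TMM, which matches the bulk of transcripts between libraries, in place of TPM. ENSDART00000113395.3 averaged 202 ± 33.6 TPM at LCO 10 mg/L, 220.3 ± 17.9 at LCO 1 mg/L, 236 ± 14.9 under ion and 265 ± 5.98 in untreated larvae (SD, n = 5 each).

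The widest gaps between exposed and untreated libraries, after ENSDART00000161630.2, were those of ENSDART00000173392.2, ENSDART00000193557.1 and ENSDART00000192532.1. ENSDART00000193557.1 had 5.03, 3.26, 5.69, 3.96 and 4.62 TPM at LCO 10 mg/L, 3.50, 4.55, 4.22, 3.11 and 4.50 at LCO 1 mg/L, 5.26, 3.87, 4.81, 5.64 and 4.06 under ion and 9.19, 7.70, 9.36, 12.4 and 8.55 in untreated larvae. Its 3 exposed groups overlapped with each other and all lay clear of the untreated ones, the lowest of which was 1.35 times the highest exposed library. ENSDART00000173392.2 averaged 0.785 ± 0.300 TPM at LCO 10 mg/L, 1.01 ± 0.282 at LCO 1 mg/L, 1.17 ± 0.173 under ion and 2.47 ± 0.337 in untreated larvae, with a gap of 1.56 times (SD, n = 5 each). ENSDART00000192532.1 averaged 4.64 ± 1.40 TPM at LCO 10 mg/L, 4.66 ± 1.41 at LCO 1 mg/L, 6.80 ± 0.701 under ion and 11.1 ± 1.90 in untreated larvae, with a gap of 1.32 times (SD, n = 5 each).

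**Figure D2:**
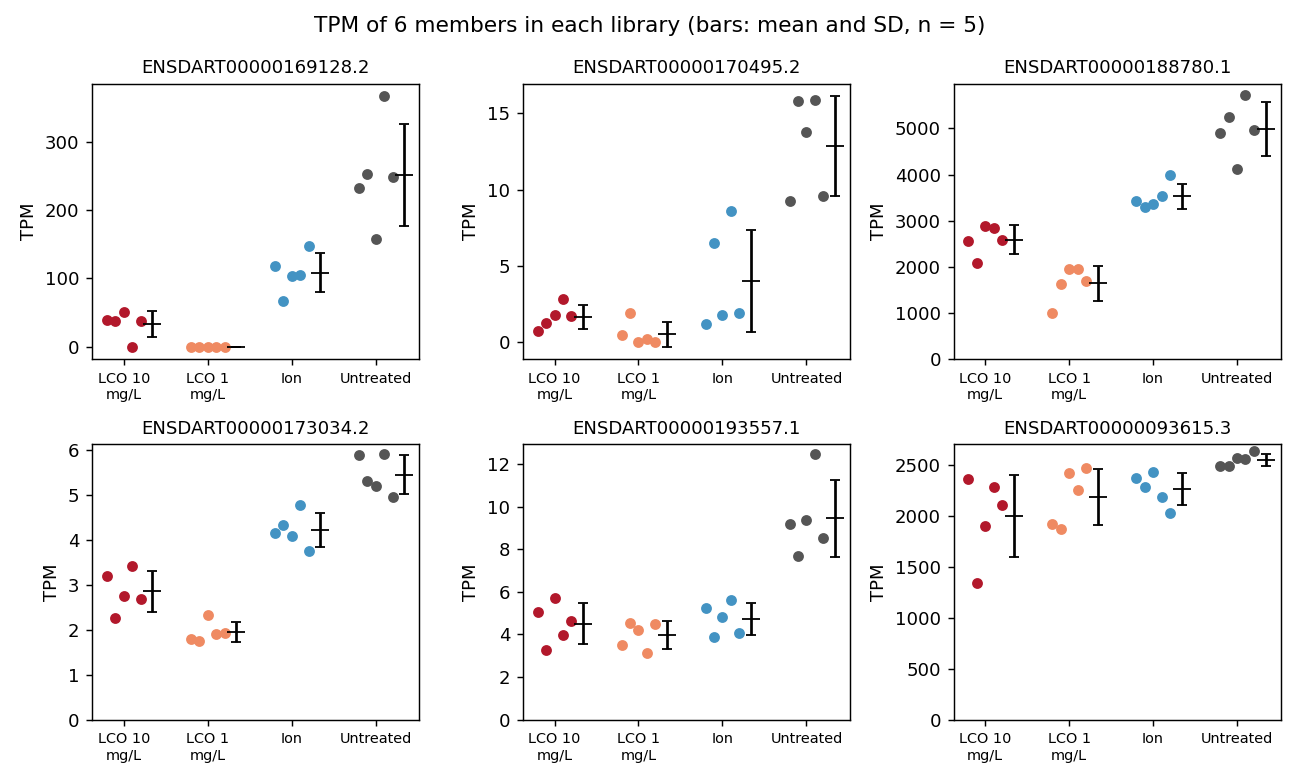
Points are the 5 libraries of each group, in TPM on a linear axis, for 6 members; the bar beside them is the mean and SD. ENSDART00000169128.2 is at 0 in every LCO 1 mg/L library, ENSDART00000188780.1 and ENSDART00000173034.2 are lowest at LCO 1 mg/L and higher under ion than at either LCO dose, ENSDART00000193557.1 overlaps between all exposed groups, and ENSDART00000093615.3 has exposed libraries that reach just under the untreated ones.

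At the edges of the rule, ENSDART00000170553.2 had the lowest untreated mean inside it, 1.103 TPM, with an exposed mean of 0.692. Just outside, ENSDART00000128922.3 had an untreated mean of 0.855 TPM and an exposed mean of 0.369, and 10 separated transcripts in all fell short of 1 TPM. For the separation, ENSDART00000044683.5 lay just inside, with 31.61 TPM in its highest exposed library, ion replicate 4, and 31.62 in its lowest untreated library. ENSDART00000099803.5 lay just outside, with 102.75 TPM in ion replicate 4 and 102.69 in its lowest untreated library.

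An ion library was the highest exposed one in 133 of the 158 members, a library of LCO 10 mg/L in 17 and one of LCO 1 mg/L in 8. The rule set its limit on that highest library, so these counts depend on the selection, and the same share over all transcripts was not taken. By group means, the orders with ion highest held 34.6% and 16.9% of all transcripts with an untreated mean of at least 1 TPM. Ion replicate 4 alone was the highest in 49 members. Leaving it out, 266 transcripts met the rule, and leaving out any other single exposed library gave 158 to 197. Among untreated libraries, replicate 2 was the lowest in 51 members and replicate 4 in 16, and 254 transcripts met the rule without replicate 2. With the 10 LCO libraries alone as the exposed ones, 1236 transcripts met the rule, and with the 5 ion libraries alone 264 did. Those 2 counts use the same untreated libraries but unlike numbers of exposed ones, and the settings were chosen after seeing the data. Fewer exposed libraries can only keep or raise the number of transcripts that meet the rule.

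The rule did not compare one exposed group with another. Such differences were tested over all 39355 transcripts that passed the filter on low counts, among them all 158 members. The rule did use the levels of the same exposed libraries, with a limit on the highest of them, which was an ion library in 133 members. All members are falling transcripts, while the background also holds flat and rising ones. Shares of members called, set beside that background, are therefore description and not independent of the rule. The test was edgeR's quasi-likelihood test, two-sided, with Benjamini-Hochberg adjustment over all of them and a threshold of 0.05. All 20 libraries shared one fit. Fold changes are on the scale of counts after TMM scaling.

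Against ion, 74 members were lower at LCO 1 mg/L and 0 were higher (edgeR adjusted p). That is 46.8% of the members, where 6.05% of all transcripts tested passed, 4.45% lower and 1.60% higher. The median log2 fold change, LCO 1 mg/L over ion, was -0.45 over the members and -0.01 over all transcripts. The fold change was negative in 154 members and in 51.9% of all transcripts tested. The 74 falls had a median size of 1.68-fold, and 20 of them were at least 2-fold. On TPM, all 5 LCO 1 mg/L libraries lay below all 5 ion libraries in 82 members, on a background of 5.89%. All 5 ion libraries lay below them in 1 member, on a background of 1.64%. Both backgrounds are shares of the 28782 transcripts with an untreated mean of at least 1 TPM, not of those tested. The count of falls was 27, still with 0 rises, when the 8 libraries that lay apart were left out. This left 3 libraries in each of the groups compared, with a median log2 fold change of -0.33 over the members. Of all transcripts tested in that setting, 0.735% were lower and 0.167% higher.

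ENSDART00000173034.2 had the smallest adjusted p among the members in that comparison. It had 1.81, 1.75, 2.34, 1.92 and 1.94 TPM at LCO 1 mg/L, against 4.17, 4.33, 4.10, 4.79 and 3.76 under ion, and the groups did not overlap. Its log2 fold change was -1.07 ± 0.11 (SE), with an edgeR adjusted p of 6.75e-05. ENSDART00000073654.4 had 1.79, 1.82, 2.22, 1.58 and 2.00 TPM at LCO 1 mg/L, against 3.34, 3.50, 3.58, 4.25 and 4.58 under ion, with a log2 fold change of -0.99 ± 0.11 (SE, edgeR adjusted p = 9.46e-05). ENSDART00000161771.3 had 8.35, 8.39, 10.6, 9.23 and 9.28 TPM at LCO 1 mg/L, against 16.4, 18.5, 18.0, 22.8 and 20.5 under ion, with a log2 fold change of -1.03 ± 0.12 (SE, edgeR adjusted p = 0.000123). In each of these, all 5 libraries of LCO 1 mg/L were below the 5 of ion, and the calls held in all 28 alternatives tried.

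ENSDART00000169128.2 was at 0 at LCO 1 mg/L and differed from ion (edgeR adjusted p = 0.000245). With 3 counts over the group assumed for LCO 1 mg/L, its mean under ion was 6497-fold higher. That fold rests on the assumed floor. The counts are estimates that share reads among similar transcripts, so a 0 need not mean absence. limma-voom, another test on the same counts, did not call ENSDART00000169128.2 (adjusted p = 0.738). ENSDART00000188780.1 had a log2 fold change of -1.06 ± 0.16 (SE, edgeR adjusted p = 0.000519) at LCO 1 mg/L relative to ion. ENSDART00000170495.2 had a log2 fold change of -3.04 ± 0.76 (SE, edgeR adjusted p = 0.0203). Without ion replicate 4 it was -2.57 and without LCO 1 mg/L replicate 5 it was -2.81, and neither passed (edgeR adjusted p = 0.0719 and 0.0631). It did not pass with limma-voom (adjusted p = 0.188) or with only these 2 groups fitted (edgeR adjusted p = 0.143) either. Of the other members named above, ENSDART00000173943.2 had a log2 fold change of -1.80 ± 0.44 (SE, edgeR adjusted p = 0.0169), ENSDART00000182186.1 of -1.21 ± 0.26 (SE, edgeR adjusted p = 0.00691), ENSDART00000164702.2 of -0.92 (edgeR adjusted p = 0.00235) and ENSDART00000145282.2 of -0.36 (edgeR adjusted p = 0.00640). ENSDART00000140155.2 did not pass, with a log2 fold change of -1.14 ± 0.43 (SE, edgeR adjusted p = 0.137). With the 8 libraries that lay apart left out, 3 libraries remained in each of these groups. ENSDART00000164702.2 then had a log2 fold change of -0.59 and did not pass (edgeR adjusted p = 0.111). In that setting ENSDART00000182186.1 had one of -1.25, about as large as with all libraries, and did not pass either (edgeR adjusted p = 0.108), nor did it with only these 2 groups fitted (edgeR adjusted p = 0.0578). limma-voom did not call ENSDART00000173943.2 (adjusted p = 0.0849). Of the 6 members with the largest ratio, ENSDART00000161630.2 and ENSDART00000140155.2 did not pass in any of the 3 comparisons between exposed groups (edgeR adjusted p of 0.492 or more and of 0.137 or more).

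**Figure D3:**
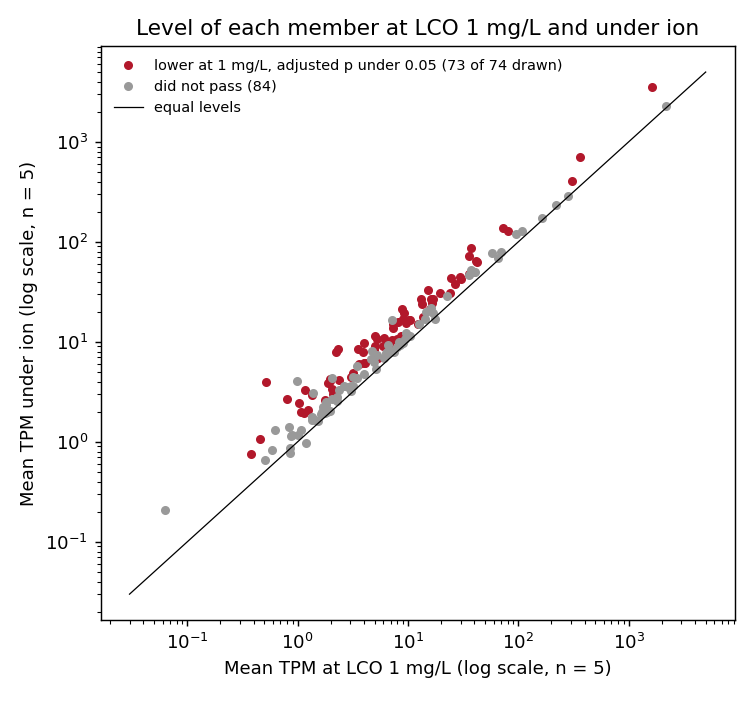
Each point is a member, at its mean TPM at LCO 1 mg/L (horizontal) and under ion (vertical), both on log axes; red points passed the test between the groups. Of the 74 that passed, 73 are drawn, since ENSDART00000169128.2 is at 0 at LCO 1 mg/L; all lie above the line of equal levels.

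Between LCO 10 mg/L and ion no single member passed the edgeR test. The edgeR test called 0 members, with 47 at an unadjusted p under 0.05, where 4442 of all 39355 transcripts were under it. Of all transcripts it called 0.170%, 0.0483% as lower at LCO 10 mg/L and 0.122% as higher. DESeq2 called 13 members, all lower at LCO 10 mg/L, where it called 1.01% of all transcripts as lower and 1.27% as higher. limma-voom called 1 member, also lower, with 0.0203% of all transcripts lower and 0.0915% higher. The median log2 fold change of the members was -0.23, against -0.02 over all transcripts. The fold change was negative in 142 of 158 members and in 52.8% of all transcripts tested. On TPM, where the median transcript of LCO 10 mg/L replicate 2 lay low, all 5 libraries of LCO 10 mg/L lay below all 5 of ion in 41 members. The background was 4.18% of the 28782 transcripts with an untreated mean of at least 1 TPM. They lay above the ion libraries in 0 members, on a background of 0.0417%. The member nearest to the threshold was ENSDART00000161771.3, with 12.0, 9.49, 13.2, 10.1 and 11.5 TPM at LCO 10 mg/L, against 16.4, 18.5, 18.0, 22.8 and 20.5 under ion. Its log2 fold change was -0.58 ± 0.12 (SE, edgeR adjusted p = 0.0518).

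Between the doses, 8 members were higher at LCO 10 mg/L than at LCO 1 mg/L and 0 were lower by the edgeR test. That is 5.06% of the members, where 0.213% of all transcripts tested passed, 0.211% higher and 0.00254% lower. The median log2 fold change, LCO 10 mg/L over LCO 1 mg/L, was 0.23 over the members and 0.01 over all transcripts. It was above 0 in 134 members, where 48.8% of all transcripts tested were below 0. On TPM, all 5 libraries of LCO 10 mg/L lay above all 5 of LCO 1 mg/L in 4 members, on a background of 0.320%. They lay below them in 0, on a background of 0.907%. Both backgrounds are shares of the 28782 transcripts with an untreated mean of at least 1 TPM. ENSDART00000172985.2 had 3.82, 2.68, 4.23, 3.84 and 4.47 TPM at LCO 10 mg/L, against 3.29, 3.05, 2.93, 2.91 and 3.01 at LCO 1 mg/L. All but LCO 10 mg/L replicate 2 lay above the LCO 1 mg/L libraries, and its log2 fold change was 0.46 ± 0.07 (SE, edgeR adjusted p = 0.0158). ENSDART00000173034.2 had 3.20, 2.26, 2.76, 3.43 and 2.68 TPM at LCO 10 mg/L, against 1.81, 1.75, 2.34, 1.92 and 1.94 at LCO 1 mg/L, with a log2 fold change of 0.69 ± 0.11 (SE, edgeR adjusted p = 0.0161).

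ENSDART00000169128.2 was higher at LCO 10 mg/L than at LCO 1 mg/L (edgeR adjusted p = 0.0158), although LCO 10 mg/L replicate 4 was at 0. Its mean at LCO 10 mg/L, that 0 included, was 2317-fold the same assumed floor, which is a ratio of means and not a lower bound. With LCO 10 mg/L replicate 4 left out the edgeR adjusted p was 1.43e-07, and limma-voom did not call ENSDART00000169128.2 with all libraries (adjusted p = 0.928). The other 5 called members, chosen after their values were seen, were ENSDART00000188780.1, ENSDART00000073654.4, ENSDART00000146650.2, ENSDART00000098356.5 and ENSDART00000170936.3. ENSDART00000146650.2 averaged 13.8 TPM at LCO 10 mg/L, against 8.13 at LCO 1 mg/L, and ENSDART00000170936.3 averaged 6.76 TPM at LCO 10 mg/L, against 3.54 at LCO 1 mg/L. ENSDART00000188780.1 differed by 0.79 on the log2 scale (edgeR adjusted p = 0.0475), a call lost in 22 of 28 alternatives, and ENSDART00000073654.4 by 0.58 (edgeR adjusted p = 0.0328), lost in 10 of 28. For both, the losses include the setting without the 8 libraries that lay apart, which left 1 library of LCO 10 mg/L.

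The count of 8 depended on single libraries. It was 0 when replicate 3 of LCO 10 mg/L was left out, and 0 also when replicate 6 of LCO 1 mg/L was. Leaving out replicate 2, 4 or 6 of LCO 10 mg/L gave 2, 1 and 16 members. Leaving out replicate 1, 2, 3 or 5 of LCO 1 mg/L gave 4, 3, 20 and 5. ENSDART00000172985.2, ENSDART00000173034.2 and ENSDART00000169128.2 all lost their calls in the first case (edgeR adjusted p = 0.0574) and in the second (edgeR adjusted p = 0.0563). ENSDART00000172985.2 also lost its call when replicate 4 of LCO 10 mg/L was left out (edgeR adjusted p = 0.0522), and ENSDART00000173034.2 when replicate 2 or replicate 4 of that group was (edgeR adjusted p = 0.0706 and 0.0589). Neither passed with only these 2 groups fitted (edgeR adjusted p = 0.132 for ENSDART00000172985.2 and 0.161 for ENSDART00000173034.2). With the 8 libraries that lay apart left out, only 1 library of LCO 10 mg/L remained, beside 3 of LCO 1 mg/L. The log2 fold change was then 0.33 for ENSDART00000172985.2 and 0.58 for ENSDART00000173034.2, and 1 library cannot decide a call.

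**Figure D4:**
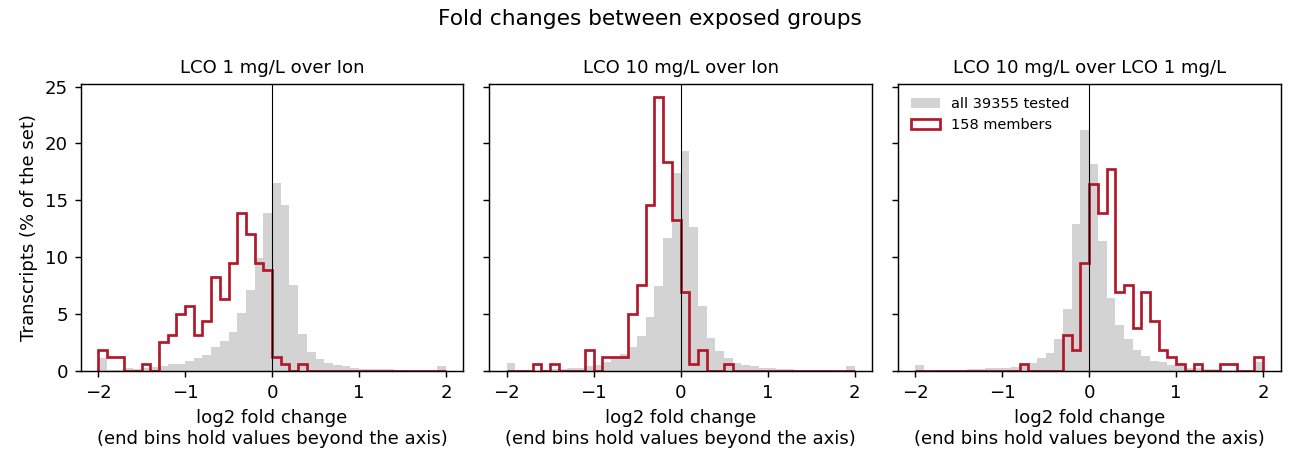
Each panel shows the log2 fold changes of 1 comparison between exposed groups, as a share of the 158 members (red line) and of all 39355 transcripts tested (grey). The members are shifted to the left against ion, with medians of -0.45 at LCO 1 mg/L and -0.23 at LCO 10 mg/L, and to the right between the doses, with a median of 0.23.

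By group means of TPM, LCO 1 mg/L was lowest and ion highest of the exposed groups in 99 members, where 16.9% of all transcripts with an untreated mean of at least 1 TPM had that order. Another 54 members (34.2%) had LCO 10 mg/L lowest, then LCO 1 mg/L, then ion, close to the 34.6% of all transcripts. Ion was thus the highest exposed group in all but 5 members. Those 5, chosen after their values were seen, were ENSDART00000145346.2, ENSDART00000178614.2, ENSDART00000168562.2, ENSDART00000099943.5 and ENSDART00000128561.4. ENSDART00000128561.4 averaged 1.06 TPM at LCO 10 mg/L, 1.19 at LCO 1 mg/L, 0.973 under ion and 1.41 in untreated larvae, and it was the 1 member in which all ion libraries lay below all those of LCO 1 mg/L. Of the 5, 1 had ion in the middle with LCO 10 mg/L lowest (34.1% of all transcripts) and 2 had it there with LCO 1 mg/L lowest (2.82%). The remaining pair had ion lowest, 1 with LCO 10 mg/L next (8.79%) and 1 with LCO 1 mg/L next (2.69%). All these orders are on TPM, where the median transcript of LCO 10 mg/L replicate 2 lay low. On the TMM scale, the fitted change put LCO 10 mg/L below LCO 1 mg/L in 24 members and in 48.8% of all transcripts tested.

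On the TMM scale the group means of the member medians were lowest at LCO 1 mg/L and highest under ion among the exposed groups, and the libraries of LCO 10 mg/L and LCO 1 mg/L overlapped. The median member stood at a log2 CPM of -0.74 ± 0.10 relative to its untreated mean at LCO 10 mg/L, -1.04 ± 0.23 at LCO 1 mg/L, -0.53 ± 0.06 under ion and -0.01 ± 0.07 in untreated larvae (SD, n = 5 libraries each). At LCO 1 mg/L, replicates 1 and 2, which lay apart on the first component, were at -1.27 and -1.28, and the other 3 between -1.01 and -0.81. At LCO 10 mg/L, replicate 1, the only one not apart, was at -0.65 and the other 4 between -0.89 and -0.66. Under ion, replicates 4 and 6, which lay apart, were at -0.48 and -0.63, and the other 3 between -0.53 and -0.50. So at both LCO doses the libraries that lay apart held the members at or below the level of the others, and the part of that separation in the results was not tested.

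**Figure D5:**
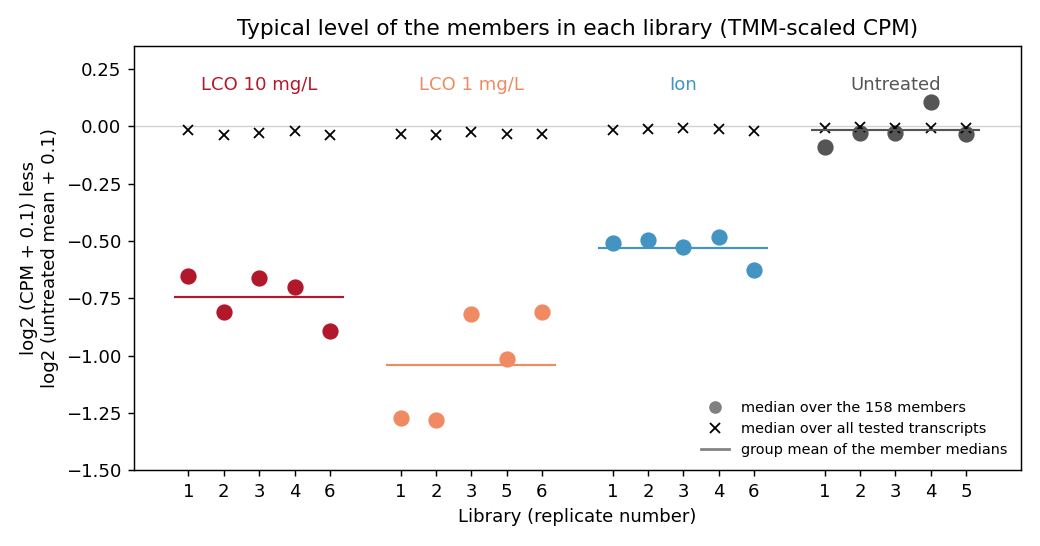
Each circle is the median over the 158 members in 1 library, as log2 CPM (TMM scale) relative to the untreated mean; lines are group means and crosses the median over all tested transcripts, which stays between -0.04 and 0. LCO 10 mg/L and LCO 1 mg/L libraries overlap, all of them lie below the ion libraries, and replicates 1 and 2 of LCO 1 mg/L are the 2 lowest of all.

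The members had a higher median abundance and a smaller share of long transcripts than the set they were drawn from. Their untreated mean had a median of 11.4 TPM, with a range of 1.103 to 4990, against a median of 4.78 for all 28782 transcripts. Their length had a median of 1687.5 bases, against 1810 for all. With all transcripts divided into 4 classes of like size by length, 20 members (12.7%) fell in the longest, above 3046 bases, and 51 (32.3%) in the one before it. The median ratio of untreated to exposed mean was 2.15 in the 38 members of the shortest class, up to 987 bases, and 1.67, 1.52 and 1.66 in the other classes by rising length. TPM uses an effective length, shorter than the transcript by a gap that depends on fragment length. That gap was 144 to 158 bases in untreated libraries, 158 to 166 at LCO 10 mg/L, 157 to 167 at LCO 1 mg/L and 154 to 168 under ion. It weighs most on short transcripts, and its part in these ratios was not tested. Between untreated libraries, the SD of the members had a median of 9.51% of the mean, against 12.3% for all. A rule of no overlap favours transcripts with little spread, and its part in these abundances, lengths and ratios was not tested. No member repeated the rounded counts of another transcript (0 of 158).

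The 74 members that were lower at LCO 1 mg/L than under ion had a median untreated mean of 16.7 TPM, against 8.26 for the other 84. Under ion the 74 stood at a median of 73.3% of their untreated mean and the 84 at 75.4%. At LCO 1 mg/L the 74 stood at 40.6% and the 84 at 59.8%, and at LCO 10 mg/L at 52.3% and 61.0%. The test between LCO 1 mg/L and ion made this split from the same libraries. A lower level at LCO 1 mg/L relative to ion is thus built into the 74. By untreated abundance, 34 of the 53 most abundant members were among the 74, as were 23 of the 52 in the middle and 17 of the 53 least abundant. The share called among all transcripts of like abundance was not taken, so no trait of the members is read from these counts. The part of read depth in the split into 74 and 84 was not tested.

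Outside the members, the transcripts most like ENSDART00000188780.1 over the 15 exposed libraries were ENSDART00000136765.2, ENSDART00000148846.2 and ENSDART00000079293.6, with Pearson's r of 0.98 each on log2 (TPM + 0.5). They averaged 638, 1667 and 1312 TPM in exposed larvae, against 1127, 2897 and 1996 in untreated larvae. For ENSDART00000161630.2, the closest had r of 0.95, 0.92 and 0.91 over the same 15 libraries, but they averaged at most 0.784 TPM in exposed larvae, and 11 of the 15 values of ENSDART00000161630.2 were 0. These are descriptions over libraries that share groups and depth.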

How the data were processed

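Whole zebrafish larvae were sequenced as RNA from pools of 20, with 5 libraries in each of 4 groups. FastQC 0.11.5, cutadapt 1.18, kallisto 0.45.0 and build GRCz11 are named in the submitters' processing notes, without settings. The authors deposited, per library, estimated counts and TPM of 57775 transcripts with their lengths, and most estimated counts are not whole, as kallisto shares reads among similar transcripts. The deposited TPM values matched those recomputed from counts and effective lengths within 0.00105%.

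Members were taken from the deposited TPM. They and the lists were chosen with earlier results of these data known. Estimated counts were rounded and tested with edgeR 4.0.16 in R 4.3.3, keeping transcripts by filterByExpr (minimum count 10), which left 39355 and at least 99.9% of each library's counts, with TMM scaling and group as the single factor. The SE is the log2 fold change divided by the square root of F. The test was also run on simulated counts with known changes at LCO 1 mg/L only, and without the split of libraries on the first component. The outcome is not given here, and nothing is read from it. Alternatives used DESeq2 1.42.0, limma 3.58.1, other scaling and filters, and left out libraries. Named members were the 6 with the largest ratio, the 6 most abundant in untreated larvae, the 4 with the widest gap, those with the smallest adjusted p per comparison and those at the edges of the rule. Without gene names, the gene lists and tissue markers planned were not used. Over the 40 pairs of replicates, the lowest chi-square divided by its degrees of freedom was 11.4, and 0 pairs were identical.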

Additional observations from a re-analysis of the deposited data

Results flagged for a closer look

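Over 92 sets of 5 libraries, 7 held a library far from the other 4. The limit used flags about 1 in 20 sets of independent normal values. The sets here share libraries, a set with 4 libraries at 0 flags any other value, and a set all at 0 cannot be flagged. No rate is therefore read from the 7. The summed TPM of the members was 5879 in LCO 10 mg/L replicate 2, against 8242 to 8781 in the other 4 of its group. In that library the median transcript also lay low on TPM, at -0.53 relative to its untreated mean on the log2 scale. The members held 0.673% of its estimated counts, against 0.659% to 0.753% in the other 4. ENSDART00000169128.2 was at 0 TPM in LCO 10 mg/L replicate 4, against 37.5 to 51.1 in the others. ENSDART00000161630.2 was at 0.192 TPM in LCO 10 mg/L replicate 4 and at 0.313 in LCO 1 mg/L replicate 3, where the other libraries of each group were at 0. ENSDART00000170495.2 was at 1.89 TPM in LCO 1 mg/L replicate 2, against 0 to 0.496. ENSDART00000173392.2 was at 0.870 TPM in ion replicate 6, against 1.19 to 1.31. ENSDART00000192532.1 was at 14.5 TPM in untreated replicate 1, against 9.98 to 10.7.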

How the results depend on the processing

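The 74 members lower at LCO 1 mg/L than under ion became 27 when the 8 libraries that lay apart were left out, with 3 libraries remaining in each of those groups. They were between 57 and 77 without a single library. Without the 8 libraries only 1 of LCO 10 mg/L remained, so no counts of its comparisons are given for that setting. The 8 members higher at LCO 10 mg/L than at LCO 1 mg/L became 25 with DESeq2, 2 with limma-voom and 0 with only these 2 groups fitted. That last fit tested 156 of the 158 members, and the filter on low counts had removed ENSDART00000169128.2, one of the 8. Without a single library, the count of members higher at LCO 10 mg/L ranged from 0 to 20. The 0 members between LCO 10 mg/L and ion became 1 with DESeq2 size factors, 13 with DESeq2, 1 with limma-voom, 1 with only these 2 groups fitted, and 0 to 2 without a single library. Over all transcripts, the 84 that differed between LCO 10 mg/L and LCO 1 mg/L became 506 with DESeq2, 21 with limma-voom, 21 with the replicate block, 45 with no filter and 0 with only these 2 groups fitted by edgeR (2505 at an unadjusted p under 0.05). The 67 between LCO 10 mg/L and ion became 899 with DESeq2, 44 with limma-voom, 106 with DESeq2 size factors, 32 with no filter and 37 with library fragment length as a covariate. The 2380 between LCO 1 mg/L and ion became 4258 with DESeq2, 1494 with the block, 1188 with only these 2 groups and 389 without the 8 libraries. Leaving out a single library gave 1 to 226, 19 to 154 and 1546 to 2522 in these 3 comparisons. With the replicate number as a block, the counts were 58, 2 and 0 for LCO 1 mg/L over ion, LCO 10 mg/L over LCO 1 mg/L and LCO 10 mg/L over ion. With the block, ENSDART00000173034.2 and ENSDART00000169128.2 lost their calls between the doses (edgeR adjusted p = 0.0545 and 0.0950). Between libraries of the same number, deviations from the group means had r from -0.202 to 0.171 over 25 pairs. No pairs of unlike number were set beside them, so this cannot tell whether the numbers pair the libraries. The median log2 fold changes of the members kept their sign in every alternative tried, and without a single library ranged from -0.51 to -0.36 for LCO 1 mg/L over ion, -0.26 to -0.20 for LCO 10 mg/L over ion and 0.17 to 0.27 between the doses. On TMM-scaled CPM in place of TPM, 324 transcripts met the rule, 151 of the 158 among them. The number was 10 with a gap of 0.8, 591 without the 8 libraries, 1236 and 264 with LCO or ion libraries alone, and 158 to 266 without a single library. A stricter gap can only keep or lower that number, and fewer exposed libraries can only keep or raise it. The cause of these differences was not tested. Estimated counts of members with few reads limit their precision most.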
